A study of Mus musculus with 20 samples.

Results

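Both dendritic cell (DC) subsets were compared with both cultured progenitors, and the genes described are those that separated them: all 4 DC arrays lay above, or all 4 lay below, the 4 progenitor arrays. Of 18193 genes with 1 symbol, 4614 were separated in this way, 1638 with higher and 2976 with lower values in DC. The study hybridised mouse total RNA to Affymetrix Mouse 430 2.0 arrays, which read the 3′ end of transcripts, with 20 samples in 10 groups of 2. The 4 groups used here were C57BL/6 cells from bone marrow: multipotent progenitors (MPP) and common dendritic cell progenitors (CDP), both amplified in culture, and conventional (cDC) and plasmacytoid (pDC) dendritic cells, both grown from such amplified progenitors. RNA of all 8 samples (1 µg each) was labelled with the same one-cycle kit. The labels name neither the sort nor the number and age of mice, and do not say whether 2 arrays of a group came from separate cultures, so p-values measure the spread between arrays, which may be technical.

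Dendritic cells take up antigen, show its peptides on MHC molecules and instruct T cells. Conventional DC specialise in priming T cells, whereas plasmacytoid DC sense nucleic acids and release type I interferon. Both arise from Flt3-expressing progenitors, under transcription factors of the IRF and ETS families, while their precursors still divide and can express genes of the granulocyte line.

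Values are the authors' log2 expression values. A value under 5 was treated as near background, so where all 4 arrays of the lower side lay under 5 the fold is a lower bound taken from 5, written "at least". Differences are the mean of cDC and pDC minus the mean of MPP and CDP, with limma's standard error (SE), and 8900 genes above 5 on at least 2 of the 8 arrays were tested. Adjusted p-values are two-sided, over all of these genes.

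The labels were checked first. Siglech, a pDC receptor, read 13.19 and 13.15 in pDC, 6.94 and 7.62 in cDC, and 2.31 to 3.91 in the progenitors. Xcr1 read 7.0 and 7.18 in cDC and lay at the arrays' floor in the other 6, and Cd83 read 12.30 and 11.86 in cDC and 2.66 and 4.81 in pDC. Itgax, listed as a cDC marker, did not mark cDC here, at 10.55 and 10.40 in cDC and 11.07 and 11.28 in pDC. The listed cDC markers Itgae and Cd209a were highest in cDC but not confined to it. Itgae read 9.43 and 10.02 in cDC and 6.66 and 6.51 in pDC, and Cd209a 8.37 and 8.93 against 4.78 and 7.23. Klk1 and Cox6a2, listed as pDC markers, did not mark pDC here: Klk1 was under 5 in all 4 DC arrays, and Cox6a2 read 12.21 and 11.98 in pDC but also 12.24 and 10.95 in CDP. Kit, listed as a progenitor marker, was highest in cDC, at 11.31 and 10.89 against 9.73 and 9.68 in MPP. Of B cell markers 2 of 7 measured could be tested and of T and NK cell markers 0 of 8. Of erythroid and megakaryocyte markers 1 of 8 could be tested. The B cell genes Cd79a, Pax5 and Ebf1 lay at the floor on all 8 arrays. Of the 2 B cell markers tested 1 was called higher in DC (limma, adjusted p under 0.05), without being separated. Beta-actin probe sets at the 3′ end exceeded those at the 5′ end by 0.69 to 0.94 log2 units in the DC arrays and by 1.23 to 2.11 in the progenitor arrays, so this measure of RNA or labelling quality moved with the comparison. The same difference for Gapdh was -0.21 to -0.06 in DC and -0.15 to 0.30 in progenitors, and for Tfrc 2.11 to 2.82 and 1.94 to 2.50, so the groups overlapped in both of these controls.

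In the limma fit 2452 genes were called higher in DC (27.6% of those tested) and 3424 lower (38.5%). Of the separated genes 1512 were also called higher (17% of genes tested) and 2725 also called lower (30.6%), and these are the members meant from here on. Separation and test use the same arrays, so neither supports the other. A further 46 separated genes higher in DC and 70 lower were tested and missed the threshold, and 80 and 181 were too low to be tested. The median difference was 1.34 for the members that were higher and -1.23 for those that were lower, against -0.14 over all genes tested. A difference of at least 2-fold was seen in 982 of the higher and 1727 of the lower members, and one of at least 16-fold in 138 and 104. With the beta-actin difference as a covariate, which leaves fewer degrees of freedom and itself differs between the groups, the members called in the fit fell to 560 higher and 946 lower. What part RNA quality had in the differences was not tested further.

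The widest gaps among higher members belonged to genes of unlike function. Ddr1, a collagen-binding receptor tyrosine kinase, read 4.26 and 4.08 (MPP), 5.40 and 4.65 (CDP), 12.09 and 11.67 (cDC) and 13.59 and 13.41 (pDC). The DC arrays were all high and the 2 groups did not overlap (difference 8.09, SE 0.20, adjusted p = 8.98e-07, 273-fold). Its other 4 probe sets did not all repeat this: 2 were separated the same way and 2 were not, and 1 of the latter read 3.93 and 3.17 in cDC. Klra17, a lectin-like receptor of the Ly49 family, read 2.25 and 2.27 (MPP), 3.03 and 2.48 (CDP), 11.62 and 11.20 (cDC) and 12.85 and 12.39 (pDC). Near background in progenitors, it was high on each DC array (at least 129-fold, adjusted p = 5.52e-07). St8sia1, which makes the ganglioside GD3, read 3.09 and 2.38 (MPP), 4.74 and 3.62 (CDP), 9.97 and 9.77 (cDC) and 9.85 and 10.27 (pDC). Here both subsets reached similar values (cDC minus pDC -0.19, adjusted p = 0.785). Camk1d, a calmodulin-dependent kinase, rose 70.0-fold, Slamf9, a SLAM family receptor, 73.8-fold, and Gm20559, a gene model without a named product, 29.5-fold.

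**Figure D1:**
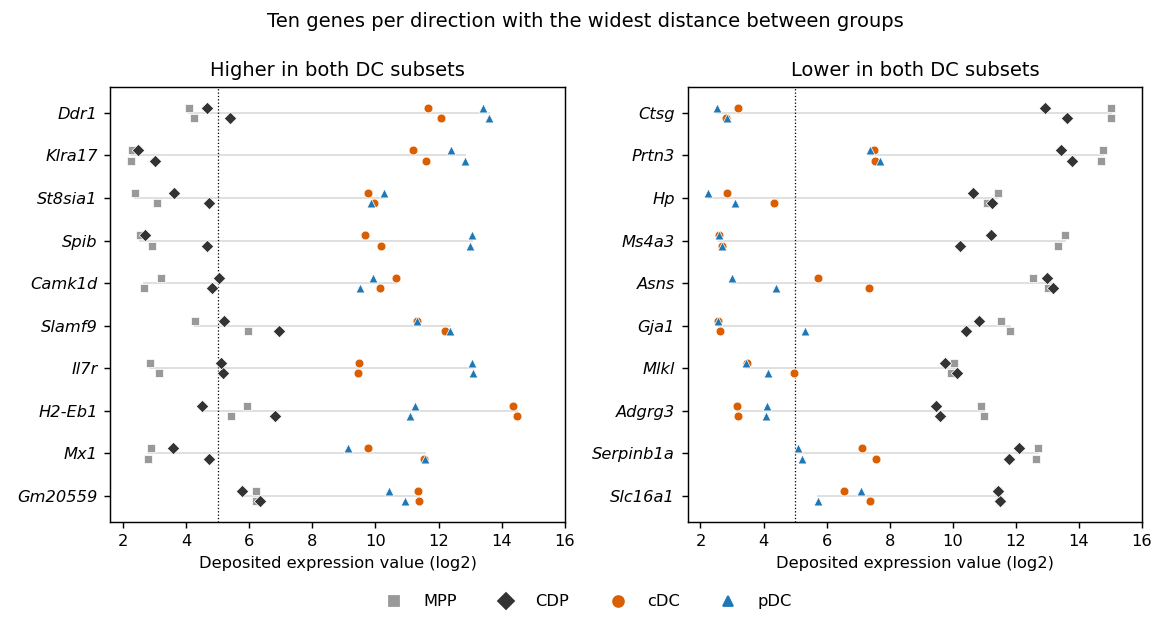
Values (log2, x axis) on the 8 arrays for the 10 genes per direction with the widest distance between the 4 DC and the 4 progenitor arrays; each point is 1 array, its shape and colour give the group, and the dotted line marks 5, the level used as near background. No point of a DC array falls among those of the progenitors in any of these genes, which chose them; Ddr1, Il7r and Spib stood higher in pDC, H2-Eb1 higher in cDC.

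Among transcription factors, the 22 DC factors tested held 8 members higher in DC, 1 lower, and a median difference of 1.79. Spib, an ETS factor of pDC and B cells, read 2.91 and 2.54 (MPP), 4.66 and 2.70 (CDP), 10.17 and 9.68 (cDC) and 12.98 and 13.05 (pDC). All DC arrays were far above background and pDC exceeded cDC (difference from progenitors at least 88.7-fold, adjusted p = 1.08e-05). Irf8, required for pDC and for the cDC that cross-present, read 9.92 and 10.16 (MPP), 11.11 and 11.47 (CDP), 12.99 and 13.70 (cDC) and 14.88 and 15.03 (pDC). It thus stood in the order MPP, CDP, cDC, pDC, with no overlap between neighbours (difference 3.49, SE 0.19, adjusted p = 1.61e-05). Irf4 read 2.56 and 2.55 (MPP), 3.71 and 3.14 (CDP), 8.83 and 8.31 (cDC) and 5.41 and 6.45 (pDC), so both subsets were above background and cDC the higher. Bcl11a, needed for the lymphoid and pDC lines, rose 4.51-fold and Irf5, which acts below Toll-like receptors, 5.59-fold.

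Irf7, the main inducer of interferon in pDC, was uneven: it read 9.09 and 5.18 in cDC, 9.88 and 8.10 in pDC, and 2.89 to 3.27 in the progenitors. The first array of each subset was the higher, and the difference of 4.93 (SE 0.83) was called (adjusted p = 0.00169) but not with the beta-actin covariate (adjusted p = 0.257). Stat3, which signals for Flt3 and IL-10, rose 4.34-fold. The member that was lower, Nfil3, a bZIP factor, read 7.0 and 7.22 in CDP, 5.38 and 5.87 in MPP, and under 5 in all DC arrays.

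Several well-known DC regulators were called without being separated on the probe set used, each because 1 subset overlapped the progenitors there. Batf3 read 6.31 and 6.66 in cDC but 2.90 and 2.69 in pDC, and Zbtb46 7.84 and 8.48 in cDC but 3.89 and 3.91 in pDC. Id2, an inhibitor of E proteins, read 15.23 and 15.30 in cDC, whereas pDC at 11.21 and 12.14 lay below CDP at 13.64 and 12.95. Tcf4, the E protein of pDC, read 14.39 and 14.30 in pDC, and cDC at 11.87 and 12.16 overlapped CDP at 11.97 and 12.01. Relb, an NF-kB subunit, followed cDC alone (8.73 and 7.22, against 4.00 and 3.65 in pDC). Spi1, which encodes PU.1, missed the threshold (difference -0.53, SE 0.22, adjusted p = 0.0716), with cDC above and pDC below all progenitors. Mycn was too low to be tested. When the 8 arrays were fitted as 2 groups of 4, the calls of Batf3, Zbtb46, Id2, Tcf4 and Relb ended, as did those of Kit, Myc and Cebpa (adjusted p from 0.053 for Tcf4 to 0.606 for Kit).

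**Figure D2:**
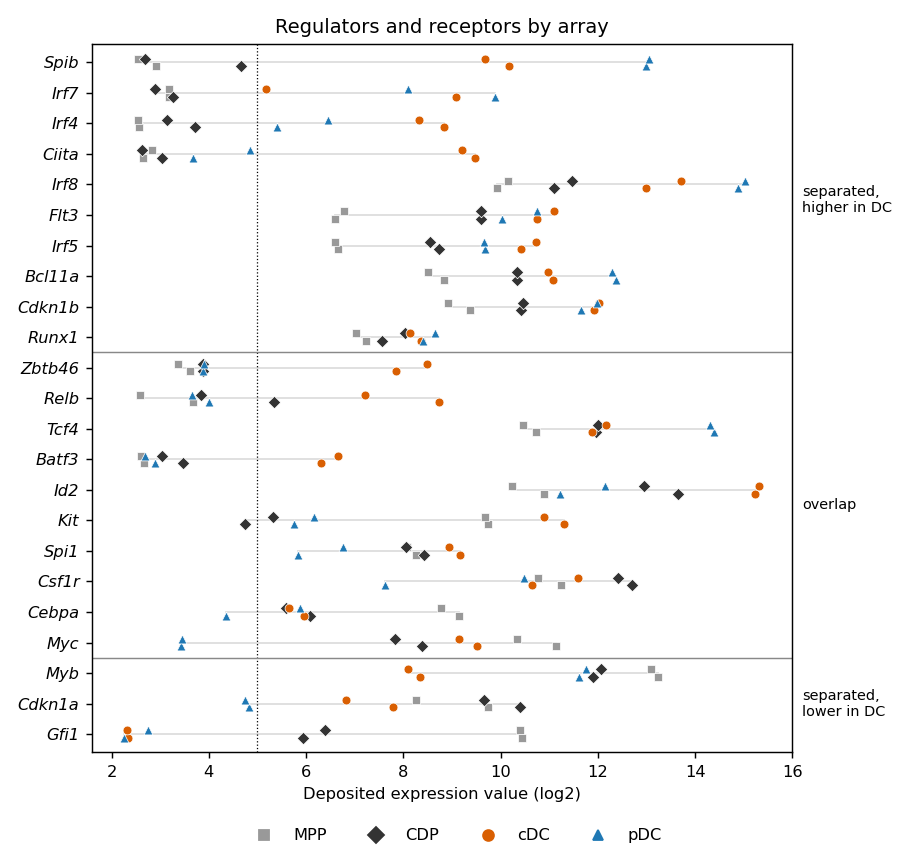
Values (log2, x axis) on the 8 arrays for 23 regulators and receptors, ordered within 3 blocks by their difference; each point is 1 array and the dotted line marks 5. The upper block holds 10 separated genes higher in DC, the lower block 3 lower in DC, and the middle block holds genes that were not separated, such as Batf3 and Zbtb46, where pDC sat with the progenitors, and Spi1, where the subsets lay on opposite sides of them.

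MHC class II genes had the largest share of higher members among the 23 lists with at least 5 genes tested. All 16 tested were called higher, 14 were members, none was lower, and the median difference was 3.99. H2-Eb1, a beta chain, read 5.43 and 5.94 (MPP), 6.82 and 4.49 (CDP), 14.49 and 14.36 (cDC) and 11.11 and 11.25 (pDC). Both subsets were well above all progenitors, with cDC above pDC by 3.24 (adjusted p = 0.0119), and the group difference was 140-fold (SE 0.47 log2 units, adjusted p = 2.96e-05). H2-Ab1 and H2-Aa, the partner chains of I-A, rose 90.4-fold and 47.6-fold. The invariant chain Cd74 differed by 5.96, the peptide loaders H2-DMa and H2-DMb2 by 3.97 and 4.93, and their modulators H2-Oa and H2-Ob by 4.37 and 3.91. Marchf1, which ubiquitinates class II, differed by 6.13 and the protease Ctss by 2.82. Ciita, the class II master regulator, read 9.48 and 9.21 in cDC, but 3.67 and 4.84 in pDC against 2.63 to 3.04 in the progenitors. The pDC arrays were thus separated under the near-background level of 5, and a fold against 5 (at least 3.48) rests on cDC. In RefSeq gene order, with untested genes left out, H2-Ob, H2-Ab1, H2-Aa and H2-Eb1 were consecutive members, as were H2-Oa, Brd2, H2-DMa and H2-DMb2. Runs as long were also found on other chromosomes, such as Inip, Snx30, Slc31a2 and Fkbp15 on chromosome 4.

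MHC class I genes moved less. Of 16 tested, 6 were members higher in DC and 1 lower, with a median of 0.83. Tapbp, the peptide-loading chaperone tapasin, rose 5.20-fold, Psme1, a proteasome activator, 2.10-fold, and H2-D1, a heavy chain, 2.35-fold. Erap1, a peptide-trimming enzyme, fell 2.17-fold. Only 1 class I gene stayed a called member higher in DC with the beta-actin covariate and 2 when no filter on low values was set, whereas 11 were without CDP replicate 1.

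Genes of antigen-receptor-type signalling and lymphoid identity held 11 members higher in DC of 17 tested and none lower (median 1.88). Blnk, the adaptor below the B cell receptor, read 2.61 and 2.25 (MPP), 4.03 and 2.66 (CDP), 9.15 and 8.69 (cDC) and 12.04 and 11.84 (pDC). Cd22, an inhibitory lectin, read 3.57 and 3.20 (MPP), 6.28 and 5.10 (CDP), 9.93 and 9.79 (cDC) and 9.45 and 10.05 (pDC). Both genes were high in every DC array, Blnk more so in pDC and Cd22 equally in both (cDC minus pDC 0.10, adjusted p = 0.893). Ly6d read 14.06 and 13.46 in pDC, 6.68 and 7.53 in cDC, and under 5 in the progenitors, an order also seen for the pDC markers Siglech and Ccr9, of which Ccr9 read 5.52 and 7.14 in cDC and 13.96 and 13.21 in pDC. Whether pDC in the cDC samples had a part in these cDC values was not tested, and in bulk samples a few cells and a low level per cell cannot be told apart. The summed intensity of the 7 B cell markers was 397 to 605 in cDC, 235 and 430 in pDC and 179 to 502 in progenitors, and the B cell factors Pax5 and Ebf1 were at the floor. Of the 11 members 6 stayed called with the beta-actin covariate.

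Cytokine and growth factor receptors held 7 members higher in DC and 1 lower of 26 tested (median 1.08). Il7r, the IL-7 receptor chain, read 3.15 and 2.86 (MPP), 5.17 and 5.12 (CDP), 9.46 and 9.48 (cDC) and 13.09 and 13.05 (pDC). The 2 arrays of each subset lay close together and the subsets apart (147-fold over progenitors, adjusted p = 2.86e-07). Il10ra, through which IL-10 restrains DC, rose 35.9-fold, Il10rb 3.41-fold, and Ifnar1, a chain of the type I interferon receptor, differed by 2.30. Flt3, the receptor whose ligand drives DC development, read 6.59 and 6.79 (MPP), 9.59 and 9.60 (CDP), 10.76 and 11.10 (cDC) and 10.03 and 10.74 (pDC). Every DC array exceeded CDP, the closest by 0.43. Csf3r, the G-CSF receptor, fell 5.53-fold. Csf1r was called lower (difference -1.70, adjusted p = 0.0376), but its arrays overlapped and the pDC pair was far apart, at 7.63 and 10.48. Its call ended with 2 groups of 4 (adjusted p = 0.132), with the covariate (0.497), without a filter on low values (0.191), and without any 1 of the MPP, CDP or cDC arrays (0.0562 to 0.121).

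Innate sensing genes were led by adaptors and partners of receptors. Of 19 Toll-like receptor genes tested 7 were members higher in DC and 1 lower (median 1.07). Ly86, which forms a receptor complex with Cd180, read 5.97 and 5.76 in MPP, 11.90 and 11.08 in CDP, and 13.07 to 13.36 in DC. Most of its span thus lay between the 2 progenitors. Unc93b1, which carries nucleic-acid sensors to endosomes, rose 4.95-fold and the kinase gene Irak2 at least 2.85-fold. Tlr4, the LPS receptor, was the member that was lower: it read 6.36 on both cDC arrays, 2.94 and 3.51 in pDC, and 6.38 to 7.75 in progenitors, with a gap of 0.02. The list held no lower member after quantile normalization or in the fit of 2 groups of 4, and 2 or 3 when MPP replicate 2, CDP replicate 2, cDC replicate 2 or pDC replicate 1 was left out.

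Interferon-response genes held 14 members higher in DC of 21 tested and none lower (median 2.90). Mx1, an antiviral GTPase, read 2.80 and 2.88 (MPP), 4.71 and 3.57 (CDP), 11.55 and 9.75 (cDC) and 11.57 and 9.12 (pDC). Usp18, which removes ISG15 and dampens the receptor, read 12.05 and 8.39 in cDC, 12.12 and 8.13 in pDC, and 2.25 to 3.12 in progenitors. In both subsets the first array was the higher, and the list's median value was 11.07 and 8.03 in cDC and 10.07 and 7.15 in pDC against 5.48 to 6.40 in progenitors. Trim30a, an interferon-induced member of the TRIM family, was steadier, at 10.07 to 10.24 in progenitors and 12.58 to 13.95 in DC (8.55-fold, adjusted p = 5.64e-05). Trim34a, Trim5, Trim12a, Trim12c, Trim30a and Trim30d were 6 consecutive members in RefSeq order on chromosome 7. Runs of this length were not particular to them: Pld2, Mink1, Slc25a11, Rnf167, Pfn1 and Eno3 on chromosome 11 were another among higher members, and lower members had runs of 6 too. The list's count fell from 14 to 8 without a filter on low values and to 5 with the beta-actin covariate, where Mx1 had an adjusted p = 0.0521 and Usp18 0.18.

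Promoters of these genes were read from RefSeq (GRCm38.p6), 1 per gene, from 250 bases before to 50 after the start site. An interferon-stimulated response element core, GAAA followed after 2 bases by GAAA on either strand, stood in 5 of the 11 interferon-response members with a promoter in the table (45.5%), against 3.11% of all 7334 promoters of tested genes. The stretches around it are shown for the 3 such members with the widest gap between groups, with the match in capitals, as a description of the letters only. They lie at chr7:104465195-104465269 on the minus strand, chr8:71537562-71537636 on the minus strand and chr10:128270248-128270310 on the plus strand, and are given 5′ to 3′ along the gene. Bst2 held 2 matches, which overlap, and only 1 of them is in capitals.
Trim30a: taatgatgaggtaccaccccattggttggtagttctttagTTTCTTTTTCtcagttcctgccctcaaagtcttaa
Bst2: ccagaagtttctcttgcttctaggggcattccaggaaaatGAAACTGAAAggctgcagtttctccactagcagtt
Stat2: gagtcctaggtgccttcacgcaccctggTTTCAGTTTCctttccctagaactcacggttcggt

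Costimulation and maturation genes were called more often than they were separated. Of 18 tested 12 were called higher but only 5 were members, and none was a member that was lower (median 2.02). Cd200, an inhibitory ligand, read 2.25 and 2.32 (MPP), 2.38 and 2.39 (CDP), 7.96 and 8.06 (cDC) and 9.22 and 9.37 (pDC), all DC arrays far above background (at least 12.6-fold, adjusted p = 2.86e-07). Icosl, a costimulatory ligand, read 9.72 and 8.94 in cDC, 5.72 and 5.85 in pDC, and 4.13 to 5.31 in progenitors, so the lowest pDC array cleared the highest progenitor by 0.40. Tnfaip3, the NF-kB brake A20, rose 4.51-fold. Cd83 and Ccr7 were called but not separated: 1 pDC array for Cd83 and both for Ccr7 lay among the progenitors. Of the 5 members 3 stayed called with the beta-actin covariate.

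Lysosomal and endosomal genes held 9 members higher in DC and 1 lower of 25 tested (median 0.43). Ctsh, an aminopeptidase cathepsin, read 7.57 and 7.14 (MPP), 11.31 and 10.28 (CDP), 13.43 and 13.25 (cDC) and 13.69 and 13.62 (pDC) (21.5-fold). As with Ly86, CDP stood between MPP and DC. Psap, the precursor of the saposins, rose 6.40-fold and Cst3, a cathepsin inhibitor, 4.67-fold. Gla, a lysosomal galactosidase, fell 9.81-fold. With the beta-actin covariate 2 of the 9 were still called.

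Monocyte and macrophage markers split, with 5 members higher and 3 lower of 16 tested (median 0.17). Mpeg1, perforin-2, rose 10.3-fold and Cd68 5.76-fold, whereas Cd14, the LPS co-receptor, fell 4.28-fold. C1qb read 7.44 and 9.12 in cDC, 4.30 and 9.45 in pDC, and 2.39 on every progenitor array. The pDC pair also differed in Lyz2 (7.13 and 11.94) and Adgre1 (4.32 and 8.86), and the list's median value was 4.92 in 1 pDC array and 8.38 in the other. The part of other myeloid cells in the second pDC sample was not tested. The beta-actin covariate left 2 higher and 1 lower member called, and with values under 5 raised to 5 the list held 3 higher members.

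Granule genes of the neutrophil line showed the widest gaps among the lower members. All 14 granulocyte markers tested were called lower, 11 were members, and the median difference was -5.47. Ctsg, the serine protease cathepsin G, read 15.01 and 15.02 (MPP), 13.64 and 12.92 (CDP), 2.83 and 3.18 (cDC) and 2.83 and 2.53 (pDC). It was near background on every DC array and lower by at least 567-fold (difference -11.30, SE 0.19, adjusted p = 2.86e-07). Prtn3, proteinase 3, read 14.71 and 14.75 in MPP, 13.77 and 13.42 in CDP, and 7.37 to 7.70 in DC, a 99.6-fold fall to values above 5. Whether these values lay above the background of this probe set was not tested. Ms4a3, a marker of granulocyte-monocyte progenitors, read 13.33 and 13.56 in MPP, 10.22 and 11.22 in CDP, and 2.60 to 2.67 in DC. Mpo, myeloperoxidase, read 14.66 and 14.69 in MPP and 8.60 on both CDP arrays, with all DC arrays under 3.

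The summed intensity of the 16 measured granulocyte markers reached 133628 and 153037 for MPP, 22294 and 31625 for CDP, and 325 to 383 for DC. Whether granulocyte precursors among the cultured progenitors or granule transcripts in the progenitors themselves gave these values was not tested. Other leading genes that were lower were Hp, encoding haptoglobin, at least 68.9-fold, Gja1, the gap junction protein connexin 43, 237-fold, Mlkl, the effector of necroptosis, at least 31.1-fold, Serpinb1a, an inhibitor of neutrophil proteases, 66.1-fold, the adhesion receptor Adgrg3 at least 37.7-fold, and Slc16a1, a monocarboxylate transporter, 27.5-fold. Mast cell and basophil markers were called lower in 7 of 7 tested, but only Mcpt8 was a member.

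Stem and progenitor genes held 12 members lower and 2 higher of 22 tested (median -2.10). Cd34, a surface sialomucin, read 11.49 and 11.17 (MPP), 9.17 and 9.16 (CDP), 6.10 and 7.25 (cDC) and 2.74 and 2.37 (pDC). Hoxa9, a homeobox factor of self-renewal, had the subsets reversed, at 4.64 and 5.82 in cDC and 8.45 and 9.23 in pDC against 11.59 to 12.05 in progenitors. Gfi1, a repressor of the granulocyte line, read 10.45 and 10.40 in MPP, 5.94 and 6.38 in CDP, and 2.25 to 2.76 in DC. Myb, a regulator of progenitor proliferation, was separated only narrowly, since pDC at 11.61 and 11.75 lay just under CDP at 11.89 and 12.06, while cDC read 8.35 and 8.10. Other Myb probe sets were not separated, because pDC overlapped CDP: 1 read 9.63 and 9.88 in pDC and 9.97 and 9.69 in CDP. Runx1 (1.90-fold) and Hhex (1.94-fold) were the members that were higher, with gaps of 0.09 and 0.13. Other probe sets of Runx1 were not separated. Cebpa was called lower without separation, its CDP values of 6.09 and 5.59 lying among those of DC.

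The cell cycle gave the broadest coherent set of lower genes, with modest differences. Of 45 DNA replication genes tested 42 were members lower in DC and none was higher (median -1.77). Chaf1b, a chromatin assembly factor, read 7.78 and 8.05 (MPP), 7.81 and 7.85 (CDP), 5.65 and 4.83 (cDC) and 4.46 and 4.14 (pDC) (8.59-fold lower, adjusted p = 2.99e-05). Gins1 and Cdc45, parts of the replicative helicase, fell 7.26-fold and 6.17-fold. Both progenitors read alike in Chaf1b, while pDC lay below cDC in Gins1 and Cdc45 (cDC minus pDC 1.50 and 1.14, adjusted p = 0.00631 and 0.00914).

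Of 47 genes of mitosis and spindle tested 43 were members lower in DC and none was higher (median -1.54). Ttk, a spindle checkpoint kinase, read 8.99 and 9.21 (MPP), 9.24 and 9.29 (CDP), 7.42 and 7.07 (cDC) and 6.37 and 7.10 (pDC). Cdca8, the chromosomal passenger borealin, read 11.41 to 11.65 in progenitors and 8.85 to 9.78 in DC, so DC still had values far above background (4.06-fold lower, adjusted p = 8.46e-05). Mad2l1, of the spindle checkpoint, fell 4.23-fold. With the beta-actin covariate 22 replication and 18 mitosis genes stayed called members.

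Promoters of these genes held 2 sets of letters that are known from cell cycle genes. TTTGAA on either strand, the cell cycle homology region, was present in 26 of 34 mitosis members with a promoter (76.5%), against 12.2% of the promoters of all genes tested and 14.7% of 34 replication members. An E2F-type site, TTTNNCGC on either strand, was present in 12 of 34 replication members (35.3%), against 9.30% of all tested and 11.8% of the mitosis members. CCAAT on either strand was in 76.5% and 61.8% of the mitosis and replication members and in 39.5% of all tested. Over all members TTTGAA was in 14.6% of lower and 10.5% of higher members, and the E2F-type site in 11.5% and 5.73%. Stretches are shown for the mitosis members and then the replication members with the widest gaps among those with a match, to let the position of the letters be compared. The first 3 are at chr4:124936888-124936944 (minus strand), chr9:83834656-83834718 (plus) and chr4:118437331-118437401 (minus). The others are at chr11:98907973-98908045 (plus), chr4:108579387-108579459 (plus) and chrX:93632261-93632333 (minus). Capitals mark the TTTGAA match in the mitosis genes and the E2F-type match in the replication genes.
Cdca8: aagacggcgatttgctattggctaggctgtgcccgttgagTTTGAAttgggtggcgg
Ttk: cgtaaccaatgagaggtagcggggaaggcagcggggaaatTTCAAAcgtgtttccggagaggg
Cdc20: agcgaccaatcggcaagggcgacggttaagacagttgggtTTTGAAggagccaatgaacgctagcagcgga
Cdc6: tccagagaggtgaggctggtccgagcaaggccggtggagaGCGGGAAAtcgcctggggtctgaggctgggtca
Orc1: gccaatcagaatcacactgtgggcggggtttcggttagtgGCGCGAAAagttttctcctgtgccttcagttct
Pola1: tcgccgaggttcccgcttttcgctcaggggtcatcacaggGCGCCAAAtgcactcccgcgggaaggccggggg

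The TTTGAA match began 14 bases after the RefSeq start in Cdca8, 8 after it in Ttk and 18 before it in Cdc20, so it lay near the start in all 3. The E2F-type match began 138 bases before the start in Cdc6 and Pola1 and 27 before it in Orc1.

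Cyclins, kinases and their inhibitors did not follow 1 direction, with 6 members higher and 7 lower of 23 tested (median -0.25). Cdk6, a G1 kinase, read 12.66 and 12.86 (MPP), 12.41 and 12.65 (CDP), 9.15 and 8.76 (cDC) and 9.16 and 9.34 (pDC). It fell 11.7-fold and Cdk4, its relative, 3.03-fold, whereas their partner Ccnd1, cyclin D1, rose 9.64-fold. The antiproliferative genes Btg2 and Btg1 rose 36.9-fold and 5.28-fold, but missed the threshold with the beta-actin covariate (adjusted p = 0.0665 and 0.0526), where 2 higher and 4 lower members of the list stayed called. Cdkn1b, the inhibitor p27, rose 4.27-fold, and Cdkn1a, the inhibitor p21, fell 11.1-fold. Cdkn1a read 4.83 and 4.73 in pDC and 7.80 and 6.82 in cDC against 8.26 to 10.39 in progenitors.

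Genes that supply growth were lower throughout. Of 33 genes of ribosome biogenesis and MYC tested 30 were members that were lower (median -1.68), all 20 genes of nucleotide synthesis tested were members that were lower (median -2.20), and 17 of 19 aminoacyl-tRNA synthetases were (median -1.58). None of these lists held a member higher in DC. Srm, spermidine synthase, read 10.36 and 10.56 in MPP, 9.60 and 10.07 in CDP, and 7.14 to 7.37 in DC. Wdr12, a ribosome assembly factor, fell 11.5-fold, and Polr1b, a subunit of RNA polymerase I, 8.43-fold. Shmt2, which feeds carbon from serine into folate, read 11.73 to 12.08 in progenitors and 7.77 to 8.25 in DC (14.9-fold lower, adjusted p = 1.92e-06). Myc itself was called lower but not separated, since cDC at 9.51 and 9.14 lay above CDP at 8.39 and 7.83 while pDC read 3.42 and 3.44. With the beta-actin covariate 9 ribosome, 12 nucleotide and 14 synthetase genes stayed called members.

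Amino acid synthesis and ATF4-response genes fell furthest of these groups, with 13 members lower and 1 higher of 16 tested (median -3.10). Asns, asparagine synthetase, read 13.01 and 12.54 (MPP), 13.16 and 12.98 (CDP), 7.35 and 5.74 (cDC) and 4.40 and 3.0 (pDC). It was 223-fold lower, with pDC below cDC (adjusted p = 0.0144), and a second probe set read 11.84 to 12.28 in progenitors and 3.25 to 6.45 in DC. Trib3, a pseudokinase induced by ATF4, was at least 28.3-fold lower and Psat1, of serine synthesis, 16.5-fold lower. In CDP taken directly from mice, labelled with another kit, Asns read 6.07 and 4.26 and Trib3 2.55 and 2.54, at the low side, while Psat1 read 11.02 and 10.83. Kit and culture cannot be told apart there. Ddit4, an inhibitor of mTORC1, was the member that was higher (2.51-fold).

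A further motif, the element bound by ATF4 with the letters TGATGNAA on either strand, was searched after these values were seen. It stood in 5 of 12 synthetase members (41.7%) and 3 of 11 members of the amino acid list (27.3%) that were lower, against 2.25% of the promoters of all genes tested and 2.48% of all lower members. The 4 members with the widest gaps among those with a match are shown, match in capitals, from chr6:7693200-7693272 (minus), chr2:152344031-152344086 (minus), chr8:111033811-111033871 (plus) and chr4:129189866-129189932 (plus).
Asns: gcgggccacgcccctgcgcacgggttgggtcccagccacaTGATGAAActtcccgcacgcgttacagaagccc
Trib3: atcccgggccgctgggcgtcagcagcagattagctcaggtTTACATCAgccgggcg
Aars: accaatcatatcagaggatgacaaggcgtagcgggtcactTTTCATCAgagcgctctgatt
Yars: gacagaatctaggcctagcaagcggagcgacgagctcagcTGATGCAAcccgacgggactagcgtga

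**Figure D3:**
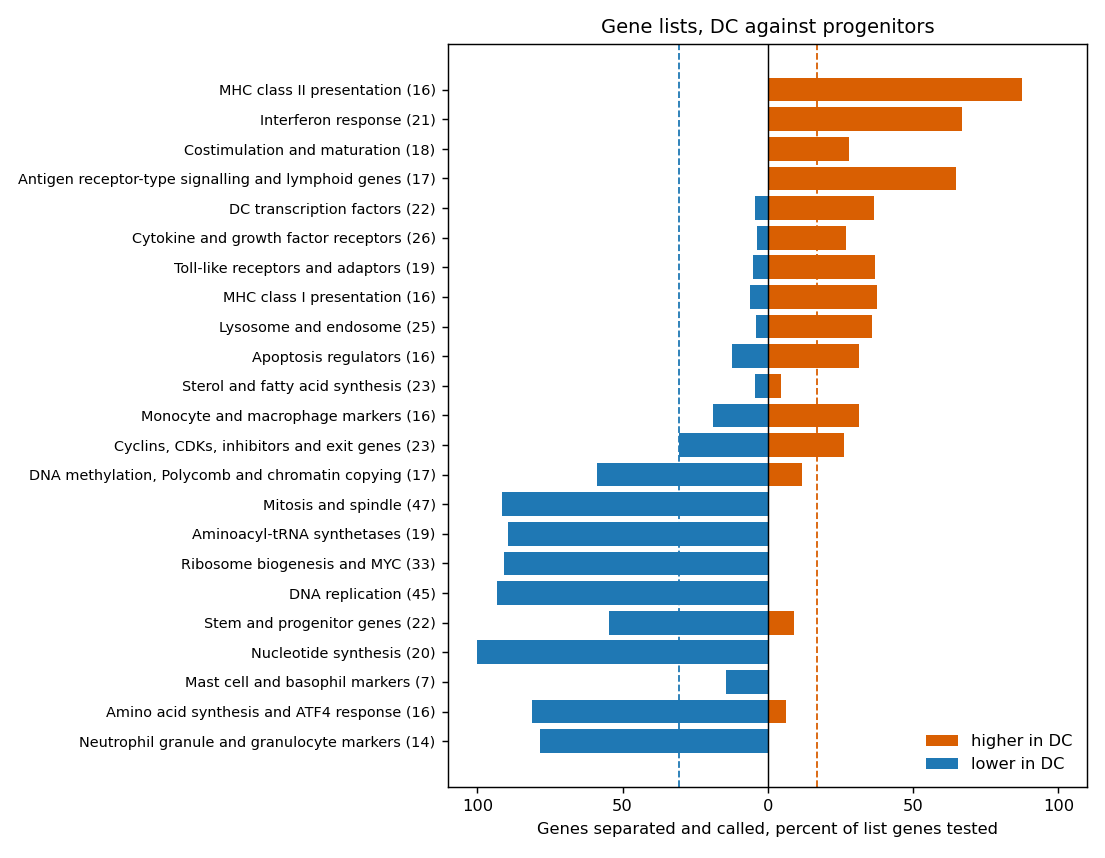
Percent of each list's tested genes (x axis; number tested in brackets) that were separated and called higher (right) or lower (left) in DC, for the 23 lists with at least 5 genes tested, ordered by median difference; dashed lines give the same share over all 8900 genes, 17% and 30.6%. Growth, DNA replication and mitosis lists are among those past the left line, and MHC class II, interferon and lymphoid lists among those past the right one. The list of cyclins and kinases does not pass the left line, and sterol synthesis stays inside both.

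Genes of chromatin copying were mostly lower. Of 17 genes of DNA methylation, Polycomb and chromatin copying tested 10 were members that were lower and 2 higher (median -0.79). Dnmt1, which copies DNA methylation, read 10.73 to 11.23 in progenitors and 8.23 to 9.53 in DC (4.24-fold lower), and Hells, a remodeller that aids it, fell 5.15-fold. Ezh1, the Polycomb enzyme of resting cells, rose 3.02-fold and Dnmt3a, a de novo methyltransferase, 2.48-fold. With the beta-actin covariate 3 and 1 of these stayed called members, Ezh1 among them. The rise of Dnmt3a depended on the probe set. Another one was also separated as higher, but a further one read 5.42 and 5.12 in pDC and 7.20 and 7.32 in cDC. Progenitors read 6.52 to 7.43 there, so pDC lay below them and cDC among them.

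Apoptosis regulators held 5 members higher and 2 lower of 16 tested (median 0.27). Bcl2 was lower, at 9.91 to 11.50 in progenitors and 8.55 to 8.76 in DC (4.11-fold), as was the pro-death gene Bak1 (1.97-fold). Of the other Bcl2 probe sets 1 was separated the same way and the rest were not. Among the latter, 1 read 7.01 and 8.76 in cDC and 6.37 and 8.23 in pDC against 7.91 to 9.12 in progenitors. The inhibitors of apoptosis Birc3 and Xiap rose 4.57-fold and 2.55-fold. Under the beta-actin covariate 2 higher members and 1 lower stayed called. Sterol and fatty acid synthesis was mostly not separated, with 1 member in each direction of 23 tested (median 0.24): Scd1, a fatty acid desaturase, was at least 14.3-fold lower and Srebf2, the sterol regulator, 2.38-fold higher. Without CDP replicate 1 the list held 4 lower members, without MPP replicate 1 it held 2, and without MPP replicate 2 it held 3 higher members.

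The subsets were then compared within the members, as a description, since the rule used the same cDC and pDC arrays. Of the 1512 higher members 144 were higher in cDC (9.52%) and 284 higher in pDC (18.8%), and of the 2725 lower members 303 were higher in cDC (11.1%) and 105 higher in pDC (3.85%). Over all genes tested 12.8% were called higher in cDC and 12.7% higher in pDC. These counts shrank when 1 array was left out: without cDC replicate 1 to 83, 174, 139 and 59 in the order above, without cDC replicate 2 to 87, 179, 185 and 64, and without pDC replicate 1 to 84, 162, 143 and 53. Without pDC replicate 2 the last count was 65.

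Among the 5 most even members in each direction, Gsn, the actin-severing protein gelsolin, read 14.02 and 14.15 in cDC and 14.07 and 14.12 in pDC, against 8.23 to 11.54 in progenitors. Prkcb, a protein kinase C, read 11.39 and 10.87 in cDC and 11.14 and 11.16 in pDC, against 4.56 to 8.68. Clcf1, a cytokine of the IL-6 family, rose at least 7.58-fold, Slc9a7, an endomembrane ion exchanger, 15.8-fold and 4833407H14Rik at least 3.12-fold. For these genes the subsets' mean values differed by at most 0.03. The even members that were lower (Adgra3, Adgrl4, Bcat1, Morrbid and Ms4a3) were at their lowest values in both subsets, so a difference between them could not have shown. Bcat1, which starts the breakdown of branched-chain amino acids, read 7.73 to 8.52 in progenitors and 2.25 on all DC arrays.

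**Figure D4:**
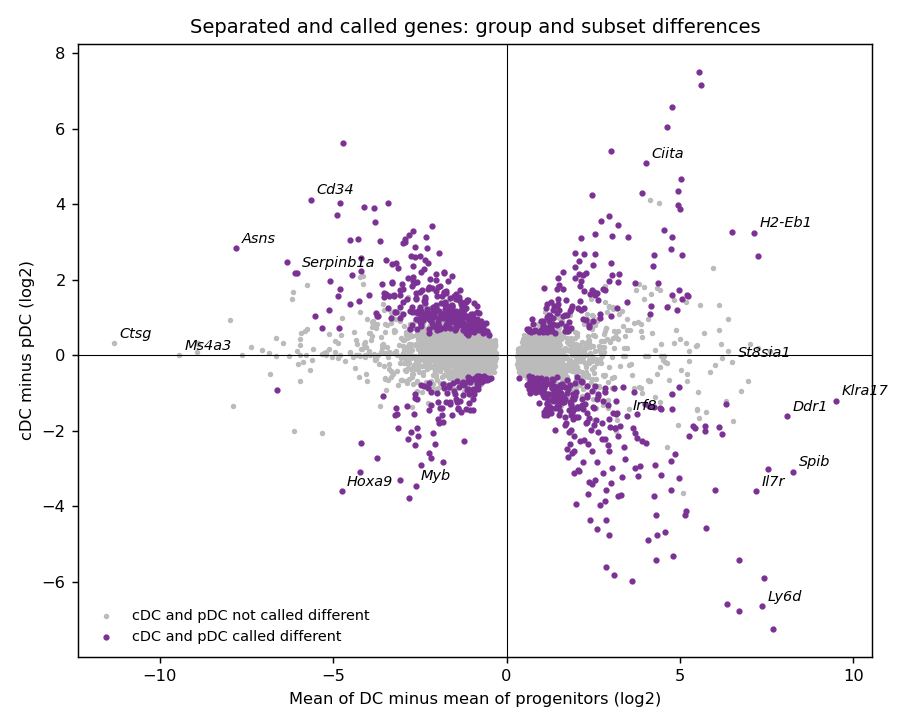
Difference between DC and progenitors (log2, x axis) against that between cDC and pDC (log2, y axis) for the 1512 higher and 2725 lower members, each point 1 gene; purple points were called different between the subsets. Ly6d lies lowest of the labelled genes and Ciita highest, while Ctsg and St8sia1 lie near 0 on the y axis.

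At the edge of the rule, Sfmbt1 (7.04 to 7.65 in DC, 6.73 to 7.04 in progenitors) and Zfp599 (3.94 to 5.40 and 3.25 to 3.94) were just inside as higher, and Nubp2 and Tmem161b just inside as lower. Just outside were 2610316D01Rik, whose values ran from 7.43 to 7.49, and Gcsam, which read 7.36 and 8.79 in cDC and the floor of 2.25 elsewhere, and, as lower, Ccdc180 and Mark4. Gaps at this edge were 0.00 when rounded, and 940 genes called higher and 699 called lower were not separated.

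Other probe sets of the same genes gave a second reading of the same RNA. Of 1230 other probe sets of higher members 811 were separated the same way (65.9%) and 14 the opposite way, and of 1963 of lower members 1255 (63.9%) and 19. Over all tested genes 42.6% of other probe sets were separated in either direction. This share includes the members' own probe sets and was not computed without them. Probe sets of Qk, which encodes an RNA-binding protein, were among those in opposition: 3 of them rose in DC while the one chosen by its mean level was lower. Such genes have no single direction here.

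Members were followed in arrays that the rule did not use, CDP cultures sampled 0, 4, 8, 12 and 24 h after addition of TGF-β1, which promotes DC development. Of 1484 higher members tested there 464 rose from 0 to 24 h (31.3%) and 15 fell, with a median of 0.53, and of 2707 lower members 712 fell (26.3%) and 79 rose, with a median of -0.47. Over all 12655 genes tested 10.8% rose and 8.43% fell (median -0.00). Members had also passed the filter on the 8 arrays, which these 12655 genes need not have, so the sets of genes are unlike. What part this had in the shares was not tested, since the share among genes tested in both fits was not computed. The cultures had no untreated later sample, so TGF-β1 and time in culture cannot be told apart. These arrays were labelled with another kit and normalized apart, so values are read only within them. Replicate 1 at 4, 12 and 24 h had low 5′ signal, with beta-actin 3′ ends 1.89 to 2.11 above 5′ ends against 0.19 to 0.35 on the other 7 arrays. Without these 3 arrays 703 and 27 of the higher members rose and fell and 1202 of the lower members fell, beside 2115 and 1893 of all genes that rose and fell. Leaving out 0 h replicate 1, 0 h replicate 2 or 24 h replicate 1 lowered the counts that rose among higher members to 212, 187 and 273 and those that fell among lower members to 277, 255 and 417. Counts over all genes shrank too, to 600, 561 and 795 that rose and 389, 377 and 582 that fell.

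St8sia1 read 7.09 and 6.65 at 0 h and 11.51 and 11.17 at 24 h, and Prkcb 6.98 and 6.41 at 0 h and 11.87 and 12.20 at 24 h. Both rose, by 4.47 (SE 0.30, adjusted p = 1.20e-04) and 5.34 (SE 0.29, adjusted p = 5.49e-05). Irf4 rose by 2.72 and Ciita by 1.86, whereas Irf8 (0.27, adjusted p = 0.601) and Spib (0.08, adjusted p = 0.857) missed the threshold. Ctsg read 10.86 and 11.67 at 0 h and 7.06 and 6.72 at 24 h and fell by 4.38, and Hp fell by 4.64.

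By group, 11 of 16 MHC class II genes rose and none fell (median 1.71), and 28 of 34 ribosome biogenesis genes and 17 of 21 nucleotide synthesis genes fell (medians -1.76 and -1.51). Mitosis genes parted from these: of 47, none was called in either direction (median -0.23), and Cdca8 read 11.92 and 11.76 at 0 h and 11.93 and 11.54 at 24 h. Of 45 replication genes 19 fell (median -0.79), and 4 of 21 interferon-response genes rose and none fell (median 0.57). Cd22 went the other way from DC, reading 9.01 and 8.52 at 0 h and 7.20 and 7.07 at 24 h (fell by 1.63, adjusted p = 0.00293).

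**Figure D5:**
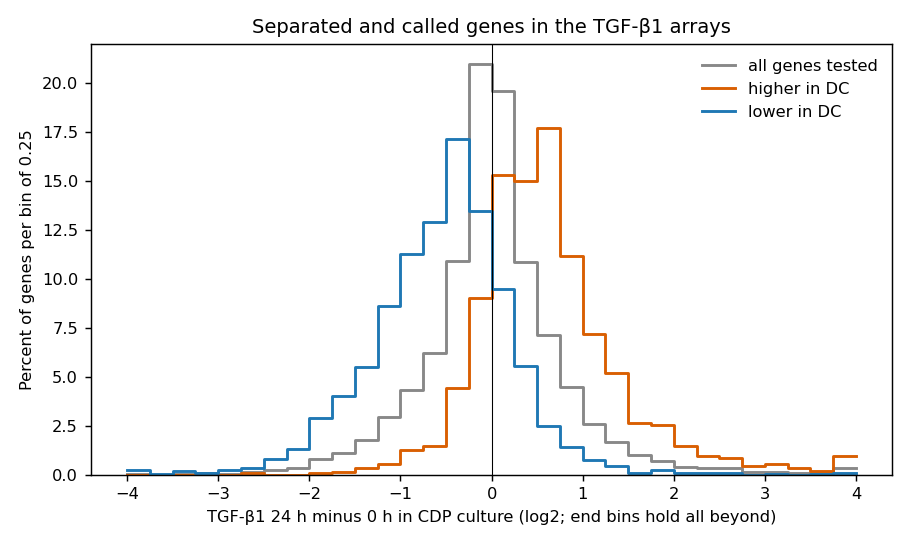
Distribution of the change from 0 to 24 h of TGF-β1 in CDP cultures (log2, x axis; percent of genes in bins of 0.25, y axis) for higher members, lower members and all genes tested. The curve of higher members is shifted to the right (median 0.53) and that of lower members to the left (median -0.47), with wide overlap.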

How the data were processed

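The deposited values are log2 expression values per probe set, which the authors made with GCRMA (no version stated), per the submitters' processing notes. The 8 arrays compared share one floor. The 10 TGF-β1 arrays do not, and were fitted separately. Of 45101 probe sets 64 were controls, 34945 had 1 symbol in GEO's annotation of 2016, 932 had several and 9160 were unnamed here. Each gene was read from 1 probe set, the brightest on average over 20 arrays. Genes above 5 on at least 2 arrays of a fit were tested with limma 3.58.1 in R 4.3.3 (group means, lmFit and eBayes), with Benjamini-Hochberg adjustment and a threshold of 0.05.

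The members and the 26 gene lists were chosen with earlier results of these data known. Lists are described by counts and medians only. Genes named are the 10 per direction with the widest gap between groups (values under 5 raised to 5), up to 3 members per list and direction, 24 fixed regulators, 2 genes per side just inside and just outside the rule, and the 5 per direction with the smallest difference between subsets among those with a gap of at least 2 in the values as deposited; other genes were named after their values were seen. Alternatives covered scaling, filtering, low values, the probe set used, moderation, the design, the replicate block, the beta-actin covariate and each array left out.

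Nothing in the labels ties samples with the same replicate number, and fits had no replicate block. Deviations from group means of same-numbered arrays correlated at 0.58 between the progenitors, at 0.44 between the DC subsets and at -0.06 to 0.11 between DC and progenitors. The 4 arrays of a side may thus not be independent, which the fits did not model. Standard errors and p-values of the difference between DC and progenitors may therefore be too small. The alternative with a replicate block gives all groups the same effect of replicate number, so it does not model this either. On simulated data for the comparison of DC and progenitors (8900 genes) the fit recovered 50 of 100 genes changed by 1 log2 unit and 96 of 100 changed by 3, with 8 false calls. Only 200 genes were changed, noise was independent between arrays, and the 4 groups otherwise shared 1 mean per gene. Correlated arrays, differences within DC or progenitors and a shift in RNA quality were absent. The 8 false calls thus do not measure the error of the real comparison. The number of arrays limits precision. Promoters were matched by symbol for 7334 of the genes tested.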

Additional observations from a re-analysis of the deposited data

Results flagged for a closer look

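Among the named members, limma's test of cDC against pDC itself (adjusted over all 8900 genes) called 39 different between the subsets, so that the shared direction against progenitors went with unequal levels. Values are cDC minus pDC in log2 units, with 2 arrays in each subset that the choice of members also used.

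Among members higher in DC, cDC exceeded pDC in the class II genes Ciita (5.09), H2-Ab1 (3.27) and H2-Eb1 (3.24), in the ligand Icosl (3.55), in the factors Irf4 (2.65) and Irf5 (0.91), and in Cst3 (1.70) and Birc3 (0.95). cDC lay below pDC in Ly6d (-6.66), Il7r (-3.60), Spib (-3.09) and Blnk (-3.02). Smaller differences of that sign were found for Ddr1 (-1.62), Irf8 (-1.61), Bcl11a (-1.31), Cd200 (-1.28), Klra17 (-1.20), Hhex (-0.93), Il10rb (-0.89), Mpeg1 (-0.84) and Unc93b1 (-0.83).

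Among members lower in DC, cDC exceeded pDC in Cd34 (4.12), Tlr4 (3.13), Asns (2.84), Cdkn1a (2.52), Serpinb1a (2.19), Nfil3 (0.99) and Erap1 (0.56). The same sign held for the growth and replication genes Wdr12 (1.64), Umps (1.59), Hells (1.54), Gins1 (1.50), Polr1b (1.28), Cdc45 (1.14), Dnmt1 (1.03) and Mad2l1 (0.77). cDC lay below pDC in Hoxa9 (-3.61), Myb (-3.45) and Adgrg3 (-0.92). Adgrg3 (3.18 and 3.15 in cDC, 4.07 and 4.10 in pDC) and Nfil3 lay under 5 on all DC arrays, so their differences between subsets are not resolved.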

How the results depend on the processing

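With 2 arrays a group, counts were less stable than directions. Requiring a call in each of the 4 pairwise contrasts left 827 genes higher and 1724 lower, and a gap of at least 1 left 365 and 707 separated genes. Treating the arrays as 2 groups of 4 called 1582 higher. Over all probe sets, named or not, 4906 and 5710 were called, 3508 and 5278 separated, and 2994 and 4545 both. With the beta-actin difference as a covariate 728 and 1084 were called and 560 and 946 were also separated, and the differences of Mark4 (0.0387) and Relb (-0.061) changed sign. The cause was not tested.

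Leaving out 1 array gave 83 to 102 higher members with cDC above pDC and 162 to 194 with pDC above, and 139 to 249 and 53 to 65 lower members. At 24 h of TGF-β1 it gave 187 to 338 higher members that rose and 5 to 11 that fell, and 23 to 60 lower members that rose and 255 to 502 that fell. Without the 3 arrays with low 5′ signal, chosen after seeing the data, these were 703, 27, 107 and 1202.

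With the replicate number as a block, none of 127 named calls was lost, members with cDC above and below pDC numbered 166 and 302 (higher in DC) and 321 and 114 (lower in DC), and at 24 h 657 higher members rose and 30 fell, and 125 lower members rose and 1111 fell, beside 2053 and 1757 of all genes. Of 133 named genes tested, 88 kept direction and call under every alternative that tested them, at most 18, and 45 did not. A difference between values under 5 is not resolved.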
